A study of Mus musculus with 12 samples.

Results

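Di-methylated lysine 4 of histone H3 (H3K4me2) usually shares its sites with the mono-methylated or the tri-methylated form. The regions described here are those where it stood alone: H3K4me2 regions found in both fetal liver libraries that overlapped no peak of any H3K4me1 library and no peak of any H3K4me3 library. There were 2955 such regions among 35821 consensus H3K4me2 regions (8.25%), and they are called H3K4me2-only regions below. A consensus region was a merged stretch of peaks that held a peak of each of the 2 H3K4me2 libraries. Of the other consensus regions, 17131 overlapped H3K4me1 but not H3K4me3, 917 overlapped H3K4me3 but not H3K4me1, and 14818 overlapped both. The name speaks only of these peak lists: absence of a called peak is not absence of the mark, and the lists hold no read counts from which depth could be judged.

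All samples came from C57BL/6 mouse embryos at embryonic day 14.5, with no treatment or mutant allele named. ChIP-seq of whole fetal liver covered H3K4me1 in 3 libraries and H3K4me2, H3K4me3 and H3K27ac in 2 each, and an input library was not analysed here. Proerythroblasts, early precursors of red cells, gave 2 ATAC-seq libraries, an assay in which a transposase cuts open chromatin. The protocol attached to these 2 samples describes ChIP and gives no transposition step, so the assay is taken from their titles. Lists held from 14027 peaks (H3K4me3 replicate 1) to 52387 (H3K4me1 replicate 1), and the H3K4me2 lists held 42334 and 41765. For H3K4me2 the sample characteristics name an Abcam antibody and the protocol names a Millipore one, so the antibody behind every region here is unsettled. Whole liver is a mixture of cells, so a mark present in few cells and a low level of it in many cannot be told apart. The labels number the replicates without saying that they came from separate litters or animals, so the spread between them may be technical.

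Methyl groups are added to lysine 4 of histone H3 in steps by enzymes of the SET1 and MLL families. The tri-methyl form is typical of active promoters, the mono-methyl form of enhancers and of the flanks of promoters, and the di-methyl form lies between them and is found at both. Acetylation of lysine 27 (H3K27ac) is typical of promoters and enhancers that are active, and open chromatin in ATAC-seq is typical of sites bound by transcription factors. Regions that carry H3K4 methylation without acetylation are often called primed or poised elements.

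H3K4me2-only regions were narrow and weak. Their median width was 678 bp (quartiles 493 and 917 bp), against 1077 bp for regions that also had H3K4me1 alone, 1416 bp for those with H3K4me3 alone and 3526 bp for those with both. They were chosen by the presence and absence of called methylation peaks, which are measured values, so the share of regions they make up is a description. They were 8.25% of regions but only 2.39% of the bases, 2.25 Mb in all. Just 47 of the 2955 (1.59%) exceeded 2 kb, against 18.6% of the regions with H3K4me1 alone, and the widest was 3753 bp. The median fold enrichment over the peak caller's background, the authors' own value for each peak, was 2.90 in H3K4me2 library 1 and 2.50 in library 2, a mean of 2.70 ± 0.280 (SD, n = 2). For regions with H3K4me1 alone the same medians were 3.15 and 2.94, and for regions with both marks 6.63 and 5.27. These widths and enrichments come from the lists that chose the regions and are given as a description with no test. In each library the H3K4me2-only median was the lowest of the 4 classes.

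Confidence of the H3K4me2 calls was low and uneven between the libraries. The median −log10 q of the strongest H3K4me2 peak on these regions was 4.16 in library 1 and 2.41 in library 2, against 4.61 and 3.68 where H3K4me1 was present alone. A value of at least 5 in both libraries was reached by 234 H3K4me2-only regions (7.92%), where 57.4% of all consensus H3K4me2 regions reached it. A further 950 reached it in 1 library, of which 943 did so in library 1. In 1771 regions (59.9%) neither library reached it, against 50.7% of regions with H3K4me1 alone and 29.9% of all H3K4me2 regions. Library 1 gave the higher fold enrichment in 84.6% of H3K4me2-only regions and in 69.3% of regions with H3K4me1 alone. Over all H3K4me2 regions outside the class that share was 83.0%.

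**Figure D1:**
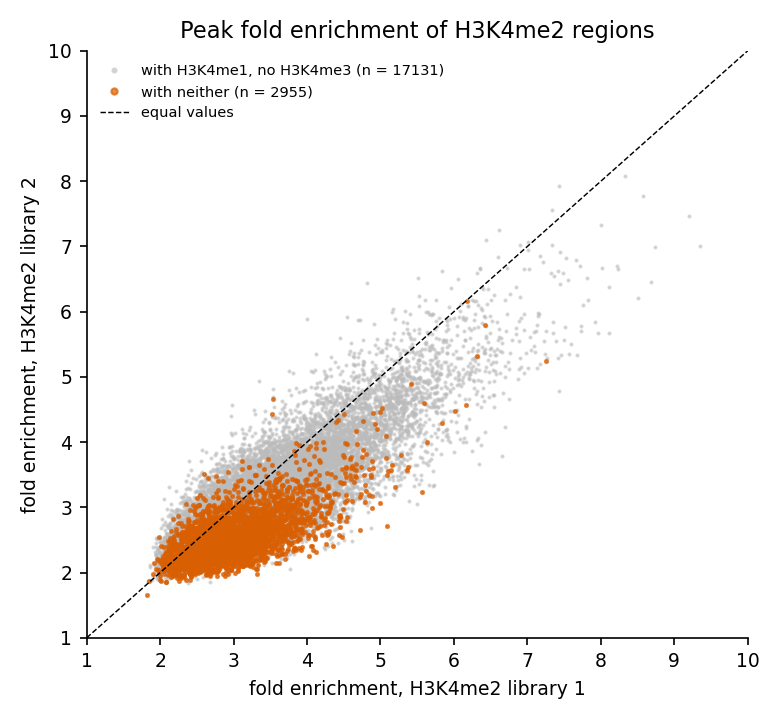
Fold enrichment of the strongest H3K4me2 peak on each region in library 1 (x axis) and library 2 (y axis), one point per region, with a dashed line of equal values. Regions with neither H3K4me1 nor H3K4me3 (orange, n = 2955) lie at the low end, mostly below the line, and overlap the regions with H3K4me1 but no H3K4me3 (grey, n = 17131). The lowest mean of the 2 libraries was 1.74 in the former and 1.85 in the latter.

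The 2 H3K4me2 libraries also outlined these regions differently. A single peak of each library made up 2940 of the 2955 regions. Library 1 covered 89.8% of their bases and library 2 covered 70.9%, with 60.7% covered by both. The order was the opposite in regions with H3K4me1 alone, where library 1 covered 76.7% and library 2 92.2%. Across regions, which are not independent replicates, the fold enrichments of the 2 libraries had a Spearman correlation of 0.605 in the H3K4me2-only regions and 0.817 in those with H3K4me1 alone, within the same 2 libraries and with a narrower range of values in the former.

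Many more such sites were called in a single library. Library 1 had 5848 peaks that overlapped no H3K4me1 or H3K4me3 peak, and 2794 of them (47.8%) had no counterpart in library 2. Library 2 had 4014 such peaks, of which 945 (23.5%) had none in library 1. The unshared peaks were the narrower and weaker ones, with median widths of 367 bp in library 1 and 339 bp in library 2, against 609 and 464 bp for the peaks that entered an H3K4me2-only region.

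Acetylation was nearly missing from H3K4me2-only regions. An H3K27ac peak lay on 29 of 2955 (0.981%) in H3K27ac library 1 and on 11 (0.372%) in library 2, a mean of 0.677% ± 0.431 (SD, n = 2). Among all consensus H3K4me2 regions the same libraries marked 48.0% and 44.0%. Regions with H3K4me1 alone had 38.9% and 33.6%, regions with H3K4me3 alone 4.36% and 3.49%, and regions with both 70.5% and 67.3%. The H3K4me2-only share was below that of each other class in both libraries. Its distance to the regions with H3K4me1 alone was 35.6 percentage points ± 3.30 (SD, n = 2), larger than the spread of the libraries. Both libraries were read at the same regions, and an exact permutation test of 2 libraries against 2 cannot give a p below 0.333, so no p is given. Counting only consensus H3K27ac regions, 10 H3K4me2-only regions were acetylated (0.338%, exact Clopper-Pearson 95% interval 0.162 to 0.621, counting error only), against 30.9% (30.2 to 31.6) of the regions with H3K4me1 alone and 42.5% of all H3K4me2 regions. H3K27ac was no part of the choice of regions.

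Open chromatin in proerythroblasts was also rare, and its extent differed between the ATAC libraries. An ATAC peak lay on 174 H3K4me2-only regions (5.89%) in ATAC library 1 and on 248 (8.39%) in library 2, a mean of 7.14% ± 1.77 (SD, n = 2). The corresponding shares of all H3K4me2 regions were 38.3% and 51.6%. Regions with H3K4me1 alone had 11.5% and 31.2%, and those with H3K4me3 alone 12.1% and 13.4%. The difference between the H3K4me1 and the H3K4me2-only regions was therefore 5.62 points in library 1 and 22.8 points in library 2, a mean of 14.2 ± 12.2 (SD, n = 2), in the same direction in both but barely larger than their spread. A consensus ATAC site lay on 87 regions (2.94%, 95% interval 2.36 to 3.62), against 36.6% of all H3K4me2 regions. The marks were measured in whole liver and openness in proerythroblasts, so the overlap spans different cell populations.

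**Figure D2:**
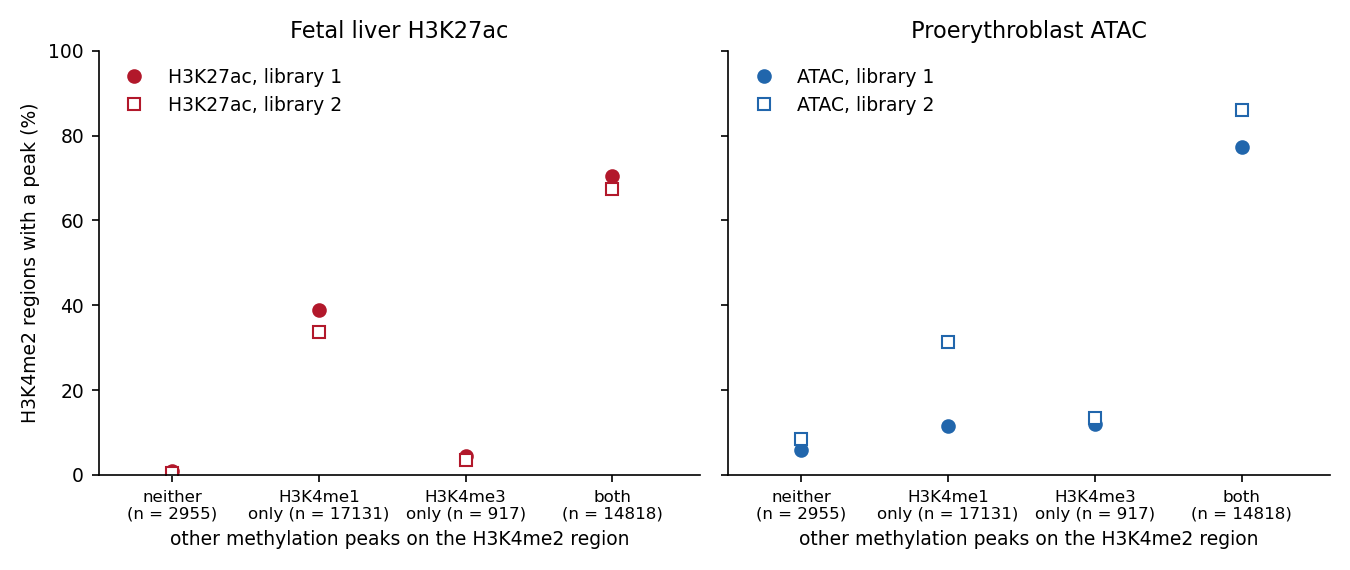
Share of consensus H3K4me2 regions (y axis, percent) with a peak of fetal liver H3K27ac (left) or proerythroblast ATAC (right), by the other methylation peaks on the region (x axis), with 1 symbol per library. The regions with neither mark are at 0.981% and 0.372% for H3K27ac and at 5.89% and 8.39% for ATAC, the lowest class in each library.

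Low acetylation was seen in every class of region width. Among regions under 500 bp an H3K27ac peak lay on 0.388% and 0.129% (libraries 1 and 2) of the 774 H3K4me2-only regions, and on 12.9% and 11.0% of the 1759 regions with H3K4me1 alone. At 500 to 999 bp the shares were 0.944% and 0.378% of 1589 regions against 22.4% and 17.6% of 6052, and at 1000 to 1999 bp they were 1.83% and 0.734% of 545 against 43.5% and 36.7% of 6129. Of the 47 H3K4me2-only regions of 2000 bp or more, 1 had an H3K27ac peak in library 1 and none in library 2, where a count of 0 allows up to 6.38%, while 75.8% and 70.6% of the wide regions with H3K4me1 alone had one. The H3K27ac share thus rose with width in the regions with H3K4me1 alone. In the H3K4me2-only regions it also rose, in library 1 throughout and in library 2 up to 1999 bp, but was at most 2.13% in any width class.

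ATAC behaved differently. In ATAC library 1 the H3K4me2-only regions under 1000 bp were open about as often as those with H3K4me1 alone: 5.30% against 3.98% under 500 bp, and 5.48% against 5.57% at 500 to 999 bp. In library 2 they were open less often, at 9.43% against 14.3% and 8.87% against 19.5%. At 1000 to 1999 bp both libraries gave the lower share to the H3K4me2-only regions, 7.52% against 11.8% in library 1 and 5.69% against 34.8% in library 2. The lower openness of narrow H3K4me2-only regions therefore rested on ATAC library 2 alone.

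**Figure D3:**
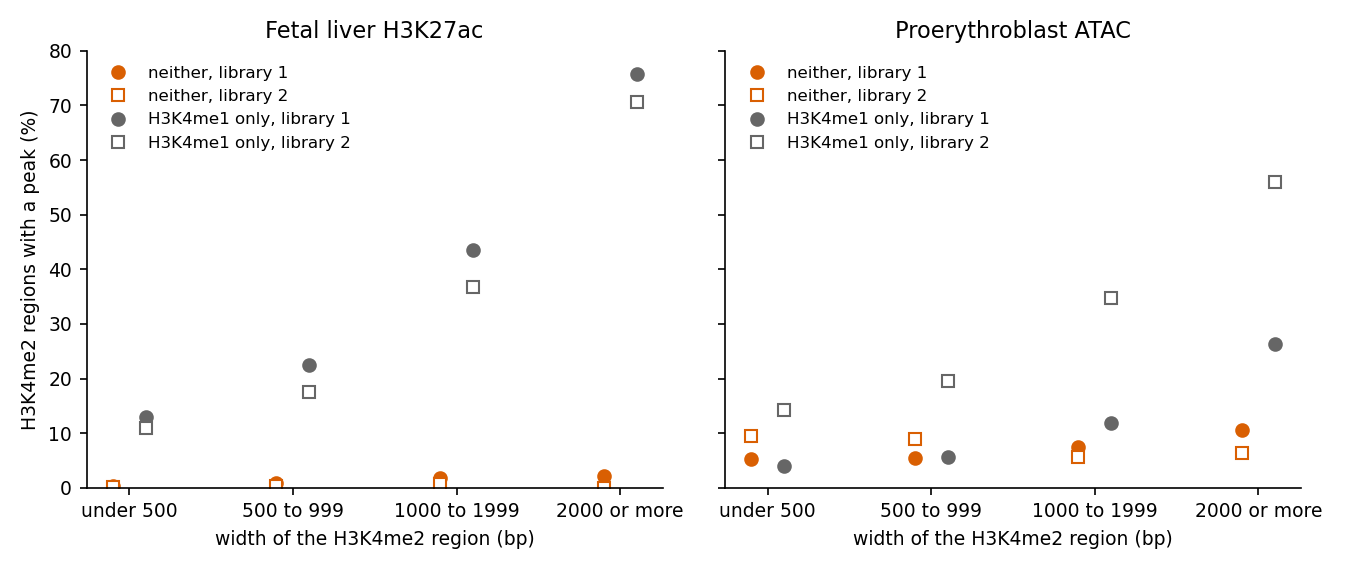
Share of H3K4me2 regions (y axis, percent) with an H3K27ac peak (left) or an ATAC peak (right) in 4 classes of region width (x axis, bp), for regions with neither H3K4me1 nor H3K4me3 (orange) and with H3K4me1 alone (grey), with 1 symbol per library. For H3K27ac the orange symbols reach at most 2.13%, and for ATAC library 1 the groups lie close together below 1000 bp (5.30% against 3.98%, and 5.48% against 5.57%).

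Strength of the H3K4me2 call moved with openness but not with acetylation. From regions under −log10 q of 5 in both H3K4me2 libraries, through those past it in 1 library, to the 234 past it in both, ATAC peaks lay on 3.33%, then 8.42%, then 15.0% of regions in ATAC library 1 and went from 4.63% to 10.9% to 26.5% in library 2. The H3K27ac shares were 1.36%, 0.211% and 1.28% in library 1 and 0.508%, 0% (a count of 0 among 950, which allows up to 0.316%) and 0.855% in library 2. Among regions with H3K4me1 alone both readouts rose across the same steps, with H3K27ac library 1 going from 28.9% to 29.7% to 59.5% and ATAC library 1 from 3.89% to 8.55% to 25.0%. A mean H3K4me2 fold enrichment above 4 was found in 73 H3K4me2-only regions (2.47%), against 46.7% of all H3K4me2 regions. None of the 73 had an H3K27ac peak in either library, which allows up to 4.11%, while 74.6% and 71.9% of the 2772 regions with H3K4me1 alone above the same fold had one. The latter were wider (median 1821.5 against 644 bp) and somewhat more enriched (median 4.54 against 4.25). With width held at 500 to 999 bp, in the third quartile of enrichment, an H3K27ac peak lay on 1.75% and 0% of the 57 H3K4me2-only regions, where a count of 0 allows up to 5.26%, and on 31.4% and 28.4% of the 582 regions with H3K4me1 alone. An ATAC peak lay on 13 of the 73 in library 1 and on 16 in library 2 (17.8% and 21.9%), against 31.9% and 66.1% of the 2772.

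Fewer H3K4me1 libraries on a region went with less acetylation, in a graded way. Among H3K4me2 regions without H3K4me3, an H3K27ac peak of library 1 lay on 0.981% of those with no H3K4me1 library, 3.70% of the 2165 with 1, 7.74% of the 2222 with 2 and 50.3% of the 12744 with all 3. Library 2 gave 0.372%, 1.48%, 4.23% and 44.2%. ATAC library 2 rose from 8.39% to 13.9%, 19.0% and 36.3%, and ATAC library 1 from 5.89% to 6.05%, 7.70% and 13.1%. The width also rose, from a median of 678 to 789, 815 and 1220 bp. Regions marked by 1 or 2 H3K4me1 libraries were thus nearer to the H3K4me2-only regions than to those marked by all 3, in width and in H3K27ac. Most regions with a single H3K4me1 library owed it to H3K4me1 library 1, the longest list, which alone kept 1854 regions out of the H3K4me2-only class, against 97 for library 2 and 214 for library 3. Without that library the class would hold 4809 regions, with a mean H3K27ac share of 1.25%. On the H3K4me3 side, library 2 alone kept out 431 regions and library 1 alone 27. Among H3K4me2 regions without H3K4me1, H3K27ac libraries 1 and 2 marked 1.53% and 0.655% of the 458 with 1 H3K4me3 library. They marked 7.19% and 6.32% of the 459 with 2. ATAC peaks lay on 7.21% and 10.3% of the 458. A near absence of acetylation was thus shared by the regions with 1 H3K4me3 library and no H3K4me1.

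**Figure D4:**
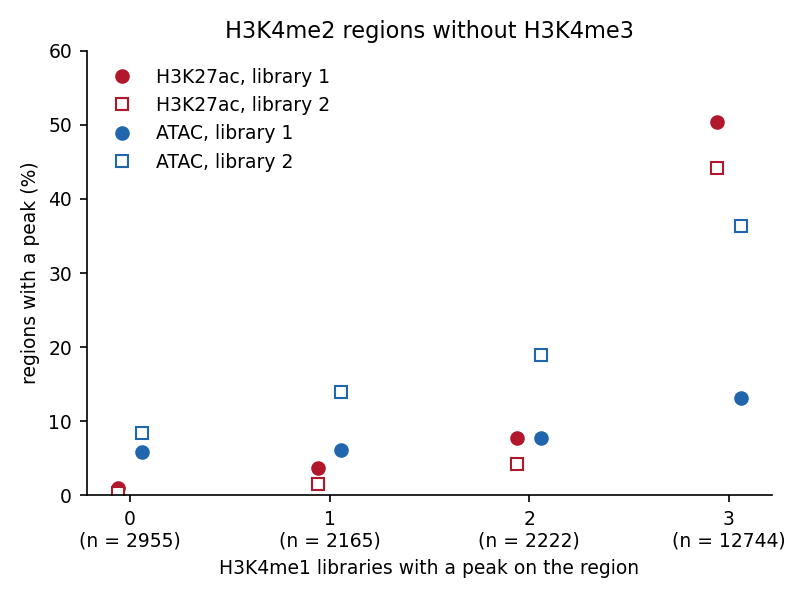
Share of H3K4me2 regions without H3K4me3 (y axis, percent) that had an H3K27ac peak (red) or an ATAC peak (blue), by the number of H3K4me1 libraries with a peak on the region (x axis), with 1 symbol per library. H3K27ac goes from under 1% with no H3K4me1 library to 50.3% and 44.2% with all 3.

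The 30 H3K4me2-only regions with an H3K27ac peak in either library were 22 closed and 8 open ones. Their H3K27ac peaks had a median −log10 q of 1.88 in library 1 and 1.86 in library 2, below the 2.46 and 2.89 of the whole lists. Their median fold enrichments of 2.73 and 2.75 were close to those of the lists (2.86 and 2.75), and the highest were 3.47 and 3.24. The 10 acetylated in both libraries had a median width of 766 bp and lay a median of 8287 bp from the nearest H3K4me1 peak. Of those 10, the region of highest mean H3K27ac fold enrichment was chromosome 6 from 113493668 to 113494786 (mm9, 1119 bp), with 3.26 and 3.24 in the H3K27ac libraries, 2.30 and 2.40 in the H3K4me2 libraries, and an ATAC peak in both ATAC libraries (4.96 and 6.37). Its nearest H3K4me1 peak was 10009 bp away. The next was chromosome 16 from 59279454 to 59280735, with H3K27ac fold enrichments of 3.12 and 2.87 and an ATAC peak (7.03) in library 2, and with no H3K4me1 or H3K4me3 peak within 190564 bp. Chromosome 10 from 32277106 to 32278141 had 3.04 and 2.78 and was more isolated still, 947326 bp from the nearest H3K4me3 peak and 950550 bp from the nearest H3K4me1 peak. Chromosome 6 from 123177365 to 123178015 (3.11 and 2.81) and chromosome 12 from 70432390 to 70433211 (2.85 and 2.72) completed the 5 highest, the last only 284 bp from an H3K4me1 peak.

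The open H3K4me2-only regions numbered 335 in all, and the ATAC libraries shared few of them. An ATAC peak of both libraries lay on 87, of library 1 alone on 87 and of library 2 alone on 161. Library 2 thus also marked 87 of the 174 regions open in library 1, a share close to the 50.5% in regions with H3K4me3 alone. It marked 88.8% of those in regions with H3K4me1 alone and 98.4% in regions with both marks. In the other direction the class did not stand apart from regions with H3K4me1 alone. Library 1 marked 35.1% of the H3K4me2-only regions open in library 2, against 32.7% with H3K4me1 alone. With H3K4me3 alone that share was 45.5%, and with both marks 88.5%. H3K4me2-only regions open in library 1 alone stood farther from other marks, a median of 39277 bp from H3K4me1, against 13472 bp for those open in both and 13337 bp for those open in library 2 alone. They were also wider, with a median of 831 bp against 627 and 631 bp. The ATAC peaks themselves were narrow, with median widths of 239 bp in library 1 and 264 bp in library 2, against 456 and 385 bp over the whole lists, and their median fold enrichments of 4.67 and 5.31 were below those of the lists (6.36 and 5.95). ATAC peaks on regions with H3K4me1 alone were close to these, at 284 and 313 bp and 4.97 and 5.41. The peaks on H3K4me2-only regions made up 0.965% of the peaks of library 1 and 0.866% of library 2. The summit lay inside the region for 158 of 178 peaks in library 1 and 210 of 251 in library 2 (88.8% and 83.7%), against 97.3% and 96.8% on regions with H3K4me1 alone and 99.5% and 98.9% over all H3K4me2 regions. This comparison was not made at equal width, and the median region width was 678 bp, 1077 bp and 1657 bp in that order. Of the 16271 consensus ATAC sites in the genome 87 met an H3K4me2-only region, and 85 of these overlapped no H3K27ac peak and no H3K4me1 or H3K4me3 peak.

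The most open H3K4me2-only region by mean ATAC fold enrichment was chromosome X from 160465336 to 160466375 (1040 bp). Its ATAC fold enrichment was 7.48 in library 1 and 14.9 in library 2, and its H3K4me2 fold enrichment was 3.50 and 2.77. Chromosome 7 from 144670181 to 144670582 followed, with ATAC values of 9.51 and 11.6 on an H3K4me2 region of just 402 bp (2.80 and 2.06). Chromosome 6 from 128429611 to 128429925 (315 bp) had ATAC values of 7.84 and 11.3, chromosome 11 from 72844172 to 72845002 had 6.71 and 9.83, and chromosome 7 from 132536717 to 132537658 had 7.87 and 7.83. None of the 5 had an H3K27ac peak, which over the whole class was found on just 1.02% of regions in either library. The nearest H3K4me1 peak to each lay between 5484 and 35520 bp away. ATAC fold enrichment in these 5 was above the list median in both libraries, but it is also the value by which they were ranked.

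Of the 10 H3K4me2-only regions with the strongest H3K4me2, 5 had an ATAC peak in 1 library, where 11.3% of the whole class had one in either library. Chromosome 2 from 73405001 to 73405587 (587 bp) had the highest mean, 6.25, with 7.25 and 5.25 in the H3K4me2 libraries and an ATAC peak (6.08) in library 2. Chromosome X from 72388274 to 72389038 had 6.17 and 6.16, the most even pair of the 10 highest, with no H3K27ac or ATAC peak, and lay 3561 bp from the nearest H3K4me1 peak. Chromosome 4 from 41812570 to 41812851 had 6.43 and 5.79 on only 282 bp, again with neither. Chromosome X from 68854257 to 68855053 had 6.32 and 5.32 and an ATAC peak (6.69) in library 2, and chromosome 10 from 51273282 to 51273931 had 6.16 and 4.58 with neither. The remaining 5 of the 10, on chromosomes 14, X, 2, X and 15, had means from 4.82 to 5.24, and 3 of them had an ATAC peak: those on chromosome 14 (from 103868520) and chromosome 15 (from 28111592) in library 1 and that on chromosome X from 132804371 in library 2. None of the 10 carried an H3K27ac peak or an ATAC peak of both libraries, which over the whole class are found on just 1.02% and 2.94% of regions. Chromosome X held 4 of the 10. All 10 were under 1 kb wide.

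As a description, since the H3K4me2 lists chose them, H3K4me2-only regions were a larger share of H3K4me2 regions on chromosome X, and stronger there. They were 107 of the 951 H3K4me2 regions of the X (11.3%, 95% interval 9.31 to 13.4) and 2848 of the 34870 on the 19 autosomes (8.17%, 7.88 to 8.46), intervals that cover counting error only. Their median fold enrichment on the X was 3.11 in library 1 and 2.69 in library 2, against 2.89 and 2.50 on the autosomes, higher in both libraries. A mean above 4 was found in 10 of the 107 (9.35%, interval 4.57 to 16.5) and in 63 of the autosomal ones (2.21%, 1.70 to 2.82). The other H3K4me2 regions were also stronger on the X, where 58.6% exceeded 4 against 50.5% on autosomes. No H3K27ac peak lay on the 107, which allows a share of up to 2.80%. The autosomal H3K4me2-only regions had 1.02% and 0.386%, within that limit, so the 0 does not set the X apart. Among autosomes the share of H3K4me2-only regions ran from 5.31% on chromosome 19 to 9.98% on chromosome 12 (interval 8.46 to 11.7). The X share was above these, but its interval overlapped that of chromosome 12. Per 10 Mb the X held fewer H3K4me2-only regions than any autosome, 6.42 against 6.93 (chromosome 14) to 15.9 (chromosome 11). It also held fewer H3K4me2 regions of any kind, 57.1 against 103 to 218 per 10 Mb. The Y held none of its 4 H3K4me2 regions in the class.

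H3K4me2-only regions mostly lay at a distance of several kb or more from other marked chromatin. Overlap with H3K4me1 or H3K4me3 was excluded by the rule, so the distances to these marks are in part set by it. The nearest H3K4me1 peak of any library was a median of 15646 bp away (quartiles 5382 and 49448 bp), the nearest H3K4me3 peak 38721 bp, the nearest ATAC peak 27086 bp and the nearest H3K27ac peak 62152 bp. An H3K4me1 peak lay within 10 kb of 38.5% of H3K4me2-only regions. An H3K27ac peak lay within 10 kb of 65.0% of regions with H3K4me1 alone, 9.38% of those with H3K4me3 alone and 10.1% of H3K4me2-only regions. The nearest other H3K4me2 region was a median of 17653 bp away, and 13.1% had none within 100 kb. Regions with H3K4me1 alone were less isolated, with 5286 bp and 2.00%, and regions with H3K4me3 alone more so, with 35392 bp and 21.5%. As nearest neighbours of H3K4me2-only regions, the classes without H3K4me1 exceeded their share of all H3K4me2 regions, and those with H3K4me1 did not. Regions with H3K4me3 alone were 6.33% of neighbours against 2.56% of the total, and H3K4me2-only regions were 19.1% against 8.25%. Within 10 kb of one another, 228 of them (7.72%) formed 109 runs, of which 102 were pairs. The longest run was of 5 regions on chromosome 6 between 48958186 and 48990261.

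**Figure D5:**
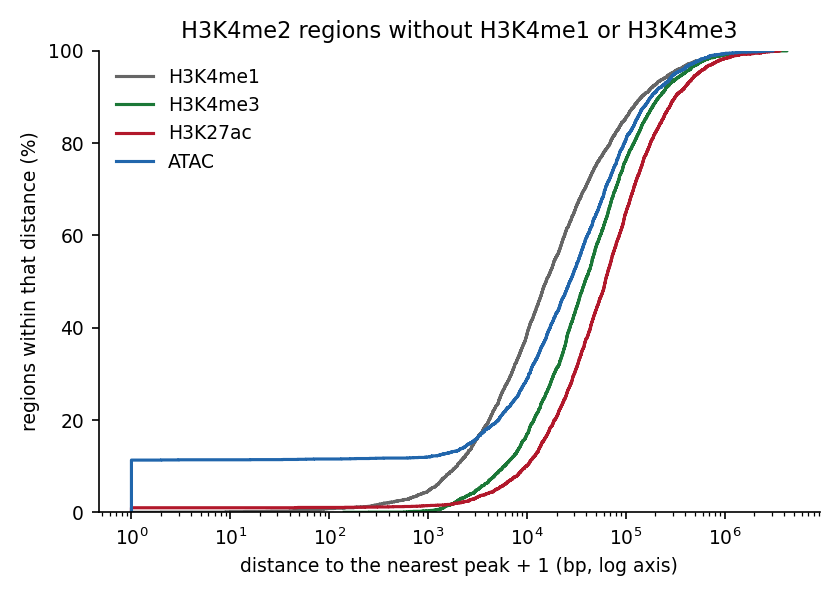
Cumulative share of the 2955 H3K4me2-only regions (y axis, percent) by distance to the nearest peak of any library of H3K4me1, H3K4me3, H3K27ac or ATAC (x axis, bp plus 1, log axis). The medians are 15646, 38721, 62152 and 27086 bp, and the ATAC and H3K27ac curves start above 0 for the regions that overlap such a peak.

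Regions near to and far from the other methylation marks were compared next. Regions with an H3K4me1 or H3K4me3 peak under 1 kb away (148) had an H3K27ac peak in 3.38% and 1.35% of cases, and those 100 kb or more away (377) in 0.531% in each library. Median H3K4me2 fold enrichment in library 1 was 2.66 in the nearest band and 3.13 in the farthest, and in library 2 it was 2.45 and 2.56. Over the 5 bands of distance (under 1, 1 to 5, 5 to 20, 20 to 100 and 100 kb or more) ATAC library 1 marked 4.05%, 4.30%, 5.49%, 5.66% and 10.6%, while library 2 marked 5.41%, 7.90%, 10.3%, 8.38% and 5.57%. Library 1 was thus highest in the farthest band and library 2 in the middle one. The most remote region, chromosome 1 from 103798540 to 103799321, was 3267489 bp from the nearest H3K4me1 peak and had H3K4me2 fold enrichments of 2.55 and 2.49. At the other end, chromosome 1 from 72050481 to 72050970 touched an H3K4me1 peak without sharing a base, and chromosome 7 from 31605333 to 31606691 was 1 bp from one. Just outside the rule, chromosome 18 from 53068286 to 53069543 shared 2 bases with H3K4me1 and chromosome 7 from 105268926 to 105269481 shared 9. Such borderline cases were few: 25 H3K4me2-only regions lay within 100 bp of a peak and 51 regions left out shared up to 100 bases with one.

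The widest H3K4me2-only regions were not strong ones. Chromosome 16 from 16524699 to 16528451 (3753 bp) had H3K4me2 fold enrichments of 2.64 and 2.92 and was the only one of the 5 widest with an H3K27ac peak, in library 1 (2.69). Chromosome 5 from 31871212 to 31874506 (3295 bp) had 2.62 and 2.50, and chromosome 1 from 136198220 to 136201271 (3052 bp) had 2.73 and 2.69, both with no H3K27ac or ATAC peak. Chromosome 5 from 31395181 to 31398215 (3035 bp) had an ATAC peak (3.69) in library 2. Chromosome 14 from 29317743 to 29320773 (3031 bp), with 3.15 and 2.22, lay 724064 bp from the nearest H3K4me1 peak. In all, 2598 of the 2955 H3K4me2-only regions (87.9%, interval 86.7 to 89.1) had no H3K27ac and no ATAC peak of any library, against 35.0% of all H3K4me2 regions and 45.0% of those with H3K4me1 alone.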

How the data were processed

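Chromatin was profiled in 12 samples, of which 11 had a peak list. Per the submitters' processing notes, tools were MACS2, SAMtools, Trimmomatic 0.32 and Bowtie 1.0.1, on build mm9; for settings, the control and any shift of ATAC cut sites nothing is given in the sources used. Peaks were called separately in every library, as the lists deposited by the authors show. Each deposited peak has a fold enrichment (a ratio to background as the caller sees it), the −log10 of its p-value, a −log10 q and a score derived from it; only the fold and the −log10 q were used. No read counts are held in the lists, so depth is unknown and signal was not tested between libraries.

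The 19 autosomes, X and Y were analysed, leaving aside 7 mitochondrial peaks. Overlapping or touching peaks were merged; overlap meant at least 1 bp. A region's fold enrichment is that of its strongest overlapping peak. Shares were read in each H3K27ac and ATAC library and given with mean and SD. Intervals are exact Clopper-Pearson 95% intervals; the limit for a count of 0 is 3 counts of the total; both cover counting error only. Interval functions (Python 3.11.15, NumPy 2.4.6, pandas 2.3.3, SciPy 1.17.1) were tested on simulated data. Positions are mm9, counted from 1. The gene and promoter tables supplied are on another build, GRCm38, so genes, sequences and cell type markers were not used here.

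Named regions are the 10 of highest H3K4me2 fold enrichment, the 5 widest, the 5 of highest H3K27ac and of highest ATAC fold enrichment among those with a peak in both libraries, and the 3 nearest, 3 just left out and 3 farthest, of which examples are given; the longest run was picked after its values were seen. Members, comparisons and alternatives were chosen with earlier results of these data known. Alternatives left out each library, changed the overlap or distance that removes a region, and raised the −log10 q threshold to 5.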

Additional observations from a re-analysis of the deposited data

How the results depend on the processing

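The near absence of H3K27ac from H3K4me2-only regions held under all 16 alternatives run, with shares from 0.338% to 2.31%, and the difference to regions with H3K4me1 alone kept its direction in all 16, as did that for ATAC. The number of regions was 2955, and ran from 2982 to 5848 with 1 H3K4me1, H3K4me2 or H3K4me3 library left out, the highest being without H3K4me2 replicate 2 and the next, 4809, without H3K4me1 replicate 1. It was 8043 when only consensus H3K4me1 and H3K4me3 regions removed a region, 4541 when their peaks had to cover most of it, and 234 with −log10 q of at least 5 in the H3K4me2 lists.

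Under those first 2 settings the H3K27ac share was 2.31% and 1.59%, the ATAC share 11.2% and 9.04%, and the median width 806 and 810 bp. The difference in H3K27ac was 46.3 and 45.3 points, and in ATAC 27.6 points under the second. Both settings also redefined the regions with H3K4me1 alone, which could then overlap some H3K4me3 peaks, so the set compared differed too. With −log10 q of at least 5 in the H3K4me2 lists the ATAC share was 20.7%, the difference in H3K27ac 56.7 points and the median fold enrichment 3.54. With that threshold in every list the H3K27ac share was 1.38%, the ATAC share 24.3% with a difference of 27.1 points, the median width 1227 bp and the fold enrichment 3.90. The class then held 3443 regions, because weaker H3K4me1 and H3K4me3 peaks no longer removed a region. Weaker H3K27ac peaks were dropped too, which can only lower the H3K27ac share. Counting consensus H3K27ac regions and ATAC sites gave an ATAC share of 2.94% and a difference in H3K27ac of 30.6 points. With 1 library left out, the H3K27ac share ran from 0.372% to 1.25%, its difference from 32.9 to 39.2 points, the ATAC share from 5.16% to 8.57%, its difference from 5.62 to 22.8 points, the width from 431 to 725 bp and the fold enrichment from 2.48 to 2.76.

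Title tags are shared by H3K4me2 replicate 1, H3K4me3 replicate 2 and H3K27ac replicate 1, and by H3K4me2 replicate 2 and H3K4me3 replicate 1, so libraries that decide membership share them too. For H3K4me2 with H3K27ac, 1 pair has the same tag. Its H3K4me2 peaks without H3K4me1 or H3K4me3 had H3K27ac in 0.940% of cases in that pair, and the 3 pairs with different tags gave 0.342% to 1.42%. No paired analysis was possible because no model was fitted that a block would enter; the differences given were already taken within each library at the same regions. Depth is unknown, so a missing peak can be a site below the reach of a library.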
